A study of Homo sapiens with 4 samples.

Results

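The genes of the urokinase plasminogen activator system examined here were PLAU, PLAT, PLAUR and SERPINE2. Their open chromatin was read at every peak of the deposited count table that lay inside one of these 4 genes or within 10 kb of either end of it. This gave 40 peaks of 190348 in all, 6 at PLAU, 14 at PLAT, 12 at PLAUR and 8 at SERPINE2. Of these, 22 touched the gene itself and 18 lay in a flank. The data were ATAC-seq, in which the Tn5 transposase cuts and tags accessible DNA, from LM2 cells, a human breast cancer line descended from MDA-MB-231 and selected for its spread to the lung. The 2 sg1 libraries came from cells with a deletion of CECR2 made with guide sg1, and the 2 control libraries from cells with a non-targeting guide. Each library used 50000 cells, and the cells of both groups were grown in the same medium with serum, penicillin and puromycin. No source used here says whether the deletion line was 1 clone, or whether replicates were separate cultures, so the p-values speak only to how far these 4 libraries scatter, and that scatter may be technical.

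Plasminogen activators are serine proteases that turn plasminogen into plasmin, which dissolves fibrin and degrades extracellular matrix. PLAU encodes urokinase and PLAT encodes tissue plasminogen activator. PLAUR encodes the receptor that holds urokinase at the cell surface, and SERPINE2 encodes protease nexin 1, a serpin that inhibits thrombin and both activators. In MDA-MB-231 cells urokinase and its receptor are known for their part in invasion, and PLAU is known to be controlled by an upstream enhancer that binds AP-1 and ETS factors. The protein made from CECR2 carries a bromodomain and works with ISWI remodellers.

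The promoter sequences below are those whose start site lies in a peak, since the results set the starts beside the peaks away from them. The last is inside PLAUR, at the start of the lncRNA gene LOC124904724 on the opposite strand, and lies within a peak that was higher in sg1. Each is the 250 bases before a RefSeq start site (GRCh38.p14), 5′ to 3′ on the strand of its gene. Capitals mark matches, on either strand, to the AP-1 motif TGANTCA or the SP1 motif GGGCGG.
PLAU, chr10:73910882-73911131, plus strand: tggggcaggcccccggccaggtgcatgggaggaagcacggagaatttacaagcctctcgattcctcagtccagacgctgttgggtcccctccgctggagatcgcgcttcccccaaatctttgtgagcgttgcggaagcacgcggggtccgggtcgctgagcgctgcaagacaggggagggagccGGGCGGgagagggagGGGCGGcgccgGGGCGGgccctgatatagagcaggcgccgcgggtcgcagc
PLAUR, chr19:43670170-43670419, minus strand: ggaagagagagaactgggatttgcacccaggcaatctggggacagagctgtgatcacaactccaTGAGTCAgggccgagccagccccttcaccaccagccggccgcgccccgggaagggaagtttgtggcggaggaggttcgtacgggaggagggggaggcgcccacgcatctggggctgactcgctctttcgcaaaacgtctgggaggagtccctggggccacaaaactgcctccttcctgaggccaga
SERPINE2, chr2:224038641-224038890, minus strand: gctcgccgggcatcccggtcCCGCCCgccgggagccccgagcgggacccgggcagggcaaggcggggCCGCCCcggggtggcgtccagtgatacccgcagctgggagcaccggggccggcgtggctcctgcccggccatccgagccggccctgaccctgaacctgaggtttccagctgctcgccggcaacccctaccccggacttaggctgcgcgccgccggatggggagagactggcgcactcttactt
LOC124904724, chr19:43668514-43668763, plus strand: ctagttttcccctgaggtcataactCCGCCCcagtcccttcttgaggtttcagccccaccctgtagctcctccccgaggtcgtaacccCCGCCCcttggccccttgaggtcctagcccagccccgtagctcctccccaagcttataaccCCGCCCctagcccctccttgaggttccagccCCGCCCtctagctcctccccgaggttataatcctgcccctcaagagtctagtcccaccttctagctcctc
The PLAU window held 3 SP1 matches, SERPINE2 held 2, and the lncRNA window held 4. The PLAUR window held 1 AP-1 match. Over all 35116 such windows, 42.6% held the SP1 motif and 6.57% the AP-1 motif. The TATA box TATAAA, the TEAD motif GGAATG and the kappa-B consensus were also searched on both strands and had no match in these 4 windows. They were found in 10.7%, 11.9% and 9.96% of all windows. There was 1 more such window for PLAU and 1 more for SERPINE2, neither of which had a peak in its 250 bases. The outer 5′ end of PLAU, at 73908832, had no window of its own and lies in a peak described below.

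The libraries differed in depth. After 109 peaks at the start of chromosome 1 were left out, 43519018 and 38924086 counts remained in the sg1 libraries and 21002477 and 15561701 in the control libraries. The peaks left out had held 25.4% and 25.4% of the counts in sg1 and 18.0% and 17.9% in control. What part either difference has in the results below was not tested, beyond a fit with the chromosome 1 peaks kept. That fit called 8 lower and 3 higher peaks at the 4 genes, the same counts as the main fit below. At mesenchymal genes of this line, the tallest gene-end peak held 79.7 CPM in sg1 and 85.6 CPM in control at VIM, and 30.4 and 31.3 CPM at CD44, where CPM is the TMM-scaled count per library size. All 6 genes of that marker list had a gene-end peak, one no more than 1 kb from either gene end, of which 1 was lower in sg1 (MSN) and 1 higher (EGFR), with sums of 208.1 and 212.9 CPM in sg1 and 209.3 and 217.6 CPM in control. Of 4 luminal or epithelial genes 3 had one, with sums of 29.99 and 28.8 CPM in sg1 and 25.6 and 28.6 CPM in control: ESR1 had none, CDH1 was near 0, EPCAM did not pass and KRT19 was higher in sg1. The haematopoietic gene PTPRC held 0.470 CPM in sg1 and 0.862 CPM in control. Summed over the 4 of 5 haematopoietic genes with such a peak, the level was 91.4 and 91.8 CPM in sg1 and 104.6 and 101.2 CPM in control, most of it at LAPTM5 and CD3E, both lower in sg1, and CD14. Of 3 endothelial genes, PECAM1 and CDH5 had no gene-end peak. The third, KDR, held 12.6 CPM in sg1 and 10.1 CPM in control and did not pass.

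Accessibility in this gene system was lower in sg1 at peaks upstream of the PLAU, PLAT and PLAUR starts and at 1 peak inside PLAT. It was higher at 1 peak inside PLAUR and 2 beyond its far end. Peaks over the start sites printed above for PLAU, PLAUR and SERPINE2 did not pass the test. Nor did the peak over the transcribed end of PLAT. At PLAU, upstream is counted from the printed start, and the taller lower peak covers the outer 5′ end of the gene. Of 38 peaks with enough counts to test, 8 were lower in sg1, 3 were higher and 27 did not pass (edgeR's quasi-likelihood test, Benjamini-Hochberg adjustment over all 184717 tested peaks, FDR of 0.05). The 8 lower peaks make 21.1% of those tested. Of all tested peaks 16.8% were lower, and 15.5% of peaks inside or within 10 kb of a protein-coding gene. The 3 higher peaks make 7.89%, against 11.5% of all tested peaks and 12.2% near coding genes. These shares are close to the background, so the counts do not set the 4 genes apart. The median log2 fold change, sg1 over control, was -0.09 over the 38 peaks and 0.02 over all tested peaks. Both sg1 libraries lay on one side of both control libraries at 24 of the 38 peaks (63.2%), against 63.7% of all tested peaks. By DESeq2, 7 of the 38 were lower and 1 was higher. Its lower share is above the 10.4% it called over all peaks with an adjusted p, and its higher share is below 4.93%. Without sg1 replicate 1 or without sg1 replicate 2, 1 higher peak was called.

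**Figure D1:**
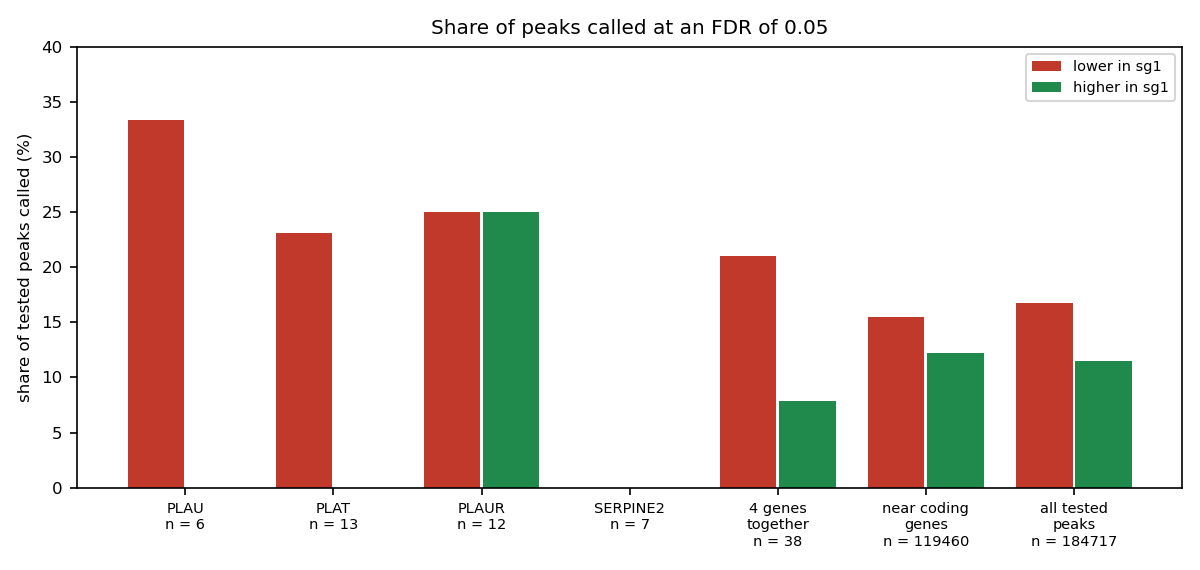
Share of tested peaks called lower or higher in sg1, in percent, for each gene, for the 4 genes together, for peaks near protein-coding genes and for all tested peaks, with the number tested under each bar pair. PLAU had 33.3% lower and none higher, PLAUR 25.0% each way and SERPINE2 none. Of protein-coding genes with 3 or more tested peaks, 13.7% had a share of lower peaks at least as large as PLAU. For PLAUR this was 22.7%. The 4 genes together had 21.1% lower and 7.89% higher, against 16.8% and 11.5% of all tested peaks. The higher PLAUR peaks include weak ones inside the neighbouring gene CADM4 that DESeq2 did not call.

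PLAU, the urokinase gene (chromosome 10, 73908832 to 73917494, plus strand), lost accessibility at 2 neighbouring peaks, and the peak over the start at 73911132 did not pass. Distances are from a peak's centre to the start whose window is printed above. The tallest peak of all 40 spanned 73908683 to 73909576, 2.0 kb upstream of that start, and covers the outer 5′ end of the gene as the gene table has it. It had 2321 and 1992 counts in sg1, against 1345 and 988 counts in control. That is 52.5 and 50.5 CPM in sg1, against 65.4 and 64.4 CPM in control. Both sg1 libraries were below both controls, a modest difference with little spread (log2 fold change -0.33, SE 0.06, adjusted p = 9.51e-05). Its mean level was above that of 99.7% of tested peaks. A narrow peak beside it, 73907938 to 73908118 and 3.1 kb upstream, had 120 and 95 counts in sg1, against 136 and 84 counts in control. Scaled for depth this was 2.71 and 2.41 CPM in sg1, against 6.61 and 5.48 CPM in control, with no overlap. It was the largest difference at PLAU (log2 fold change -1.25, SE 0.20, adjusted p = 1.35e-05). Both calls were made under all 10 alternative settings and left-out libraries.

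The other 4 PLAU peaks did not pass, and the groups overlapped at each. The peak over the start, 73910973 to 73911230, had 354 and 346 counts in sg1 and 171 and 118 counts in control, or 8.39 ± 0.547 CPM in sg1 and 8.01 ± 0.436 CPM in control (SD, n = 2 each). Its log2 fold change was 0.06, with a 95% interval of -0.22 to 0.34. The second tall upstream peak, 73906486 to 73907288 and 4.25 kb from the start, held 46.5 and 48.5 CPM in sg1 and 52.0 and 48.3 CPM in control. Its interval was -0.21 to 0.05, so a loss as large as at its neighbour 3.1 kb upstream lies outside it. The peak at the far end of the gene, 73916903 to 73918203, held 12.5 ± 0.0606 CPM in sg1 and 12.5 ± 0.607 CPM in control, and the outermost, starting at 73898973, had a log2 fold change of -0.09. The lncRNA gene C10orf55 overlaps the start and the far-end peak, so these cuts cannot be assigned to PLAU alone.

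PLAT, the tissue plasminogen activator gene (chromosome 8, 42174718 to 42207565), was lower in sg1 at 3 of 13 tested peaks and higher at 0. Of 15487 protein-coding genes with 3 or more tested peaks, 23.6% had a share of lower peaks at least as large. Before adjustment, 5 PLAT peaks were lower and 1 higher with p under 0.05, counts for which no background was taken. By DESeq2, 2 were lower and 0 higher, against 10.4% lower and 4.93% higher over all peaks with an adjusted p. The tables used here give no strand for PLAT; distances are from the end at 42207565, from which it is known to be transcribed. The largest of the 8 losses was far upstream, at 42217065 to 42217440, 9.69 kb from that end. There sg1 had 156 and 134 counts, against 178 and 152 counts in control. In CPM that was 3.53 and 3.40 in sg1, against 8.65 and 9.91 in control, and the groups were well apart (log2 fold change -1.41, SE 0.17, adjusted p = 6.09e-08). The call was made under all 10 alternatives. This peak lies 9.5 kb outside the gene, just inside the 10 kb limit. The next one out, 13.93 kb away at 42221493 to 42221712, was weak. It had 22 and 16 counts in sg1 and 27 and 13 counts in control. Its log2 fold change was -1.27 (SE 0.43, edgeR adjusted p = 0.0257), and DESeq2 did not call it (adjusted p = 0.185).

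A taller upstream peak of PLAT, 42214828 to 42215781, held 19.3 and 18.1 CPM in sg1, against 23.6 and 22.1 CPM in control. Both sg1 libraries were lower by a small margin, with a log2 fold change of -0.29 (SE 0.09, adjusted p = 0.0144). DESeq2 did not call it (adjusted p = 0.0999). Nor was it called without sg1 replicate 1 (adjusted p = 0.0713), without sg1 replicate 2 (0.223) or without control replicate 1 (0.0898), with a range of 0.00604 to 0.223 over all alternatives. Inside the gene, the peak at 42197164 to 42197683 held 6.87 and 8.72 CPM in sg1, against 11.5 and 11.02 CPM in control (log2 fold change -0.54, SE 0.14, adjusted p = 0.00352). It was not called without sg1 replicate 1 (log2 fold change -0.36, adjusted p = 0.182; range over alternatives 0.000997 to 0.182). Its neighbours at 42196259 and 42194870 had log2 fold changes of 0.23 and 0.14 and did not pass. The peak over the transcribed end, 42207043 to 42208002, held 16.5 and 16.4 CPM in sg1 and 20.1 and 18.0 CPM in control. Both sg1 values were lower, but the difference did not pass (log2 fold change -0.22, SE 0.10, adjusted p = 0.0918), though it passed without control replicate 2 (-0.29, adjusted p = 0.0317). The remaining 7 tested peaks did not pass, with log2 fold changes between -1.21 and 0.43 and SEs of 0.18 to 0.56. The peak at 42171157, inside the neighbouring gene AP3M2, passed with loess offsets (adjusted p = 0.0355), and the one at 42171604, close to that gene, passed without control replicate 1 (0.0304). The last PLAT peak, at 42166005 in AP3M2, had 6 and 10 counts in sg1 and 10 and 4 counts in control, too few to test.

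**Figure D2:**
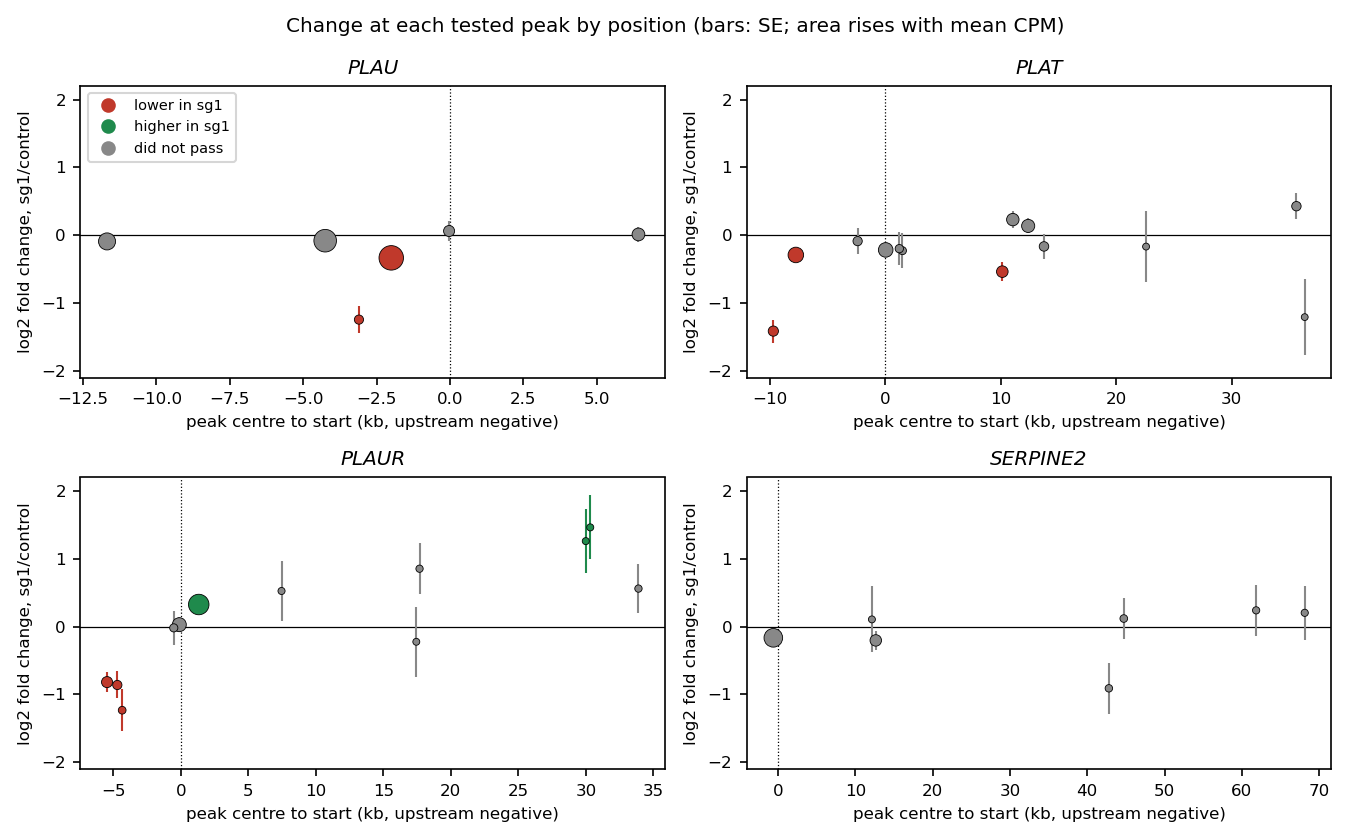
Log2 fold change of sg1 over control, with its SE, at each of the 38 tested peaks against the distance of the peak centre from the start in kb, upstream negative. Point area grows with mean CPM. Peaks over the start (dotted line) sit between -0.22 and 0.06 and did not pass. Called losses lie upstream at PLAU, PLAT and PLAUR and inside PLAT. The called gains lie inside PLAUR and beyond its far end. At PLAU the start is the one printed above, and the called loss 2.0 kb upstream of it covers the outer 5′ end of the gene.

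PLAUR, the urokinase receptor gene (chromosome 19, 43646095 to 43670169, minus strand), differed in both directions, with 3 peaks lower and 3 higher among 12 tested. Of 15487 protein-coding genes with 3 or more tested peaks, 29.5% had peaks called both ways. A share of lower peaks at least as large was found in 22.7% of them, and of higher peaks in 25.6%. All 3 lower peaks lay together upstream, inside the lncRNA gene LOC124904724, which runs from within PLAUR outward, so their cuts cannot be assigned to PLAUR alone. The tallest of them, 43675328 to 43675921 and 5.46 kb upstream, had 258 and 241 counts in sg1, against 219 and 159 counts in control. That was 5.83 and 6.11 CPM in sg1, against 10.6 and 10.4 CPM in control, with close replicates and no overlap (log2 fold change -0.82, SE 0.14, adjusted p = 4.08e-05). The next, 43674707 to 43675029, held 2.85 and 3.40 CPM in sg1, against 5.25 and 6.13 CPM in control (log2 fold change -0.86, SE 0.20, adjusted p = 0.00122). The smallest, 43674405 to 43674622, had 39 and 46 counts in sg1 and 40 and 45 counts in control, which is 0.881 and 1.17 CPM in sg1 and 1.94 and 2.93 CPM in control. It had a log2 fold change of -1.23 (SE 0.31, adjusted p = 0.00278), lower in sg1, though not called without sg1 replicate 1 (adjusted p = 0.0586; range over alternatives 0.000194 to 0.0586). The other 2 were called under all 10 alternatives.

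The peak that covers the PLAUR start, 43670065 to 43670494, had 748 and 607 counts in sg1 and 353 and 219 counts in control. Its level was 16.9 and 15.4 CPM in sg1 and 17.2 and 14.3 CPM in control, fully overlapping (log2 fold change 0.03, 95% interval -0.18 to 0.24). It holds all 250 bases of the PLAUR window printed above. The tallest PLAUR peak lay 1.33 kb inside the gene, at 43668234 to 43669436, around the lncRNA start whose sequence is given above. It had 1952 and 1718 counts in sg1, against 701 and 551 counts in control, or 44.1 and 43.6 CPM in sg1, against 34.1 and 35.9 CPM in control. Both sg1 libraries were higher (log2 fold change 0.33, SE 0.07, adjusted p = 0.000626), and the call was made under all 10 alternatives. A further upstream peak, 43670608 to 43670770 and 0.52 kb from the start, held 2.46 ± 0.324 CPM in sg1 and 2.48 ± 0.276 CPM in control and did not pass, nor did the 3 lower-level peaks deeper inside the gene.

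The other 2 higher peaks in the PLAUR window lie inside the neighbouring adhesion gene CADM4, beyond the far end of PLAUR, and are weak. The peak at 43639703 to 43639994, which covers a start of CADM4, had 49 and 36 counts in sg1, against 6 and 7 counts in control, or 1.11 and 0.913 CPM in sg1, against 0.292 and 0.457 CPM in control. Its log2 fold change was 1.46 (SE 0.47, adjusted p = 0.0182). The peak at 43640033 to 43640322 had 35 and 43 counts in sg1, against 9 and 5 in control (log2 fold change 1.26, SE 0.47, adjusted p = 0.0435). DESeq2 called neither (adjusted p = 0.166 and 0.249), nor were they called without sg1 replicate 1 (0.176 and 0.0813), without sg1 replicate 2 (0.0562 and 0.325) or without control replicate 1 (0.142 and 0.0715), and the second also not without control replicate 2 (0.128) or under the replicate block (0.0518). Over all alternatives the adjusted p ranged from 0.0138 to 0.176 for the first and from 0.0348 to 0.325 for the second. In all, 5 PLAUR peaks besides the start peak did not pass, with log2 fold changes between -0.22 and 0.85.

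**Figure D3:**
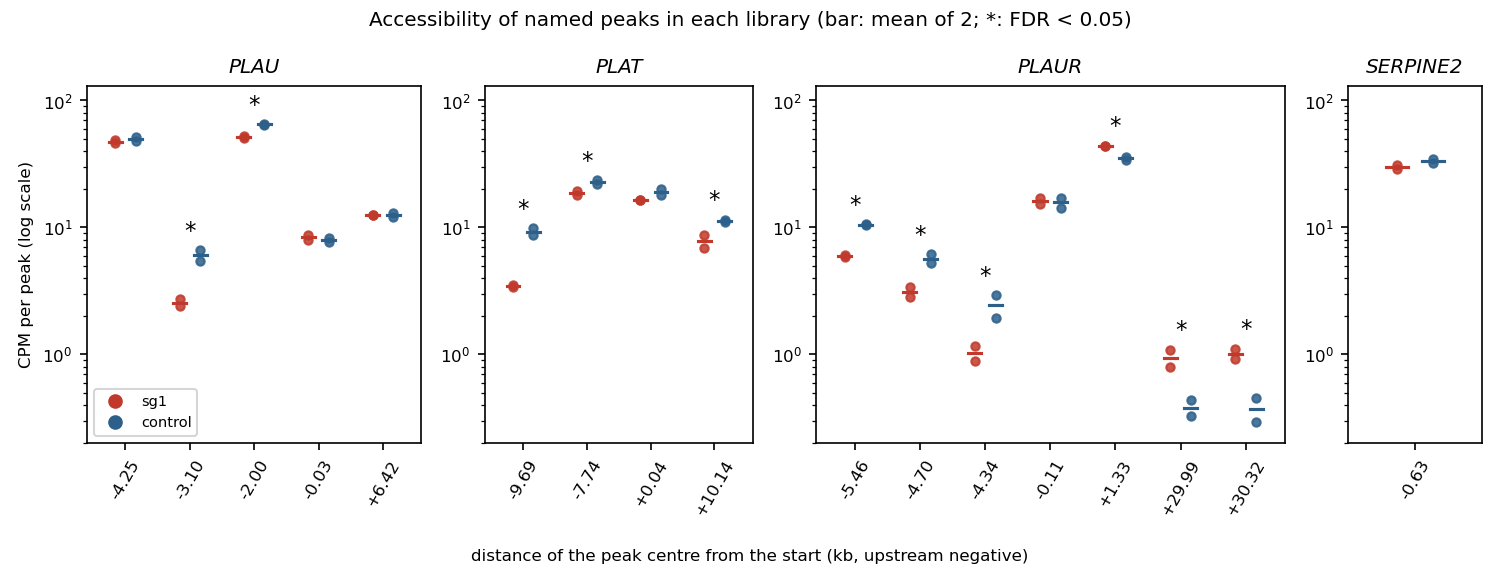
CPM of each library (points; log axis) and group mean (bars) at the named peaks, sg1 in red and control in blue, with stars for calls at an FDR of 0.05 and distances from the start under each peak. At PLAU the peak 2.0 kb upstream holds 52.5 and 50.5 CPM in sg1, against 65.4 and 64.4 CPM in control, while the peak over the start overlaps between groups.

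SERPINE2, the protease nexin 1 gene (chromosome 2, 223975045 to 224039286, minus strand), had 0 lower and 0 higher peaks among 7 tested with edgeR, and DESeq2 likewise found 0 and 0. With p under 0.05 before adjustment, 2 were lower and 0 higher, counts for which no background was taken. The tallest peak, 224038524 to 224040013, covers the start and had 1269 and 1234 counts in sg1 and 718 and 492 counts in control. Its level was 28.7 and 31.3 CPM in sg1 and 34.9 and 32.1 CPM in control. The sg1 libraries were both slightly lower, but the difference did not pass (log2 fold change -0.16, 95% interval -0.32 to -0.01, adjusted p = 0.115). Without control replicate 2 it passed (log2 fold change -0.22, adjusted p = 0.0335; range over alternatives 0.0335 to 0.657). The lncRNA gene LOC124907991 also overlaps this peak. The next in height, inside the gene at 224025641 to 224026375, held 8.60 ± 0.111 CPM in sg1 and 9.94 ± 0.791 CPM in control (log2 fold change -0.20, 95% interval -0.47 to 0.06). The other 5 tested peaks were below 2 CPM on average, where only large differences could be seen. The one with the smallest p among them, 223995691 to 223995980, had 53 and 26 counts in sg1 and 51 and 14 counts in control, so its libraries overlapped (log2 fold change -0.91, SE 0.37, adjusted p = 0.0669). It passed without sg1 replicate 1 (adjusted p = 0.0296) and without control replicate 2 (0.00051), but its log2 fold change was -0.53 without sg1 replicate 2 (0.436) and turned to 0.03 without control replicate 1 (0.972). The last SERPINE2 peak, at 223969997, had 9 and 18 counts in sg1 and 7 and 1 counts in control, too few to test.

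The start peaks differed in level when set per length. In CPM per kb of peak, the PLAUR start held 37.6 ± 2.49 in sg1 and 36.6 ± 4.73 in control, and the PLAU start 32.5 ± 2.12 in sg1 and 31.0 ± 1.69 in control (SD, n = 2 each). The SERPINE2 start held 20.1 ± 1.24 in sg1 and 22.5 ± 1.34 in control, and the PLAT end 17.2 ± 0.0830 in sg1 and 19.9 ± 1.57 in control. Within 1 SD either way, PLAUR and PLAU overlapped in control but not in sg1, and so did SERPINE2 and PLAT. The 2 tallest PLAU peaks held more than any start peak, with 57.6 ± 1.53 CPM per kb in sg1 and 72.6 ± 0.748 in control at 2.0 kb, and 59.1 ± 1.72 in sg1 and 62.4 ± 3.30 in control at 4.25 kb. These levels are a description with no test between peaks.

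Summed over all member peaks of a gene, PLAU held 148 and 147 CPM in sg1, against 169.8 and 166.9 CPM in control. PLAT held 92.6 and 93.5 CPM in sg1, against 109.5 and 103.6 CPM in control. PLAUR, where losses and gains offset each other, held 79.3 and 77.7 CPM in sg1 and 75.9 and 74.8 CPM in control. SERPINE2 held 43.1 and 45.1 CPM in sg1 and 50.6 and 47.7 CPM in control. The log2 ratio of the mean sums, sg1 over control, was -0.19 for PLAU, -0.20 for PLAT, 0.06 for PLAUR and -0.16 for SERPINE2, none of them tested. With the 4 values of a gene centred on their mean, the coding genes of similar summed level with the smallest root mean square difference over the 4 libraries were MCL1, FHAD1 and NRP2 for PLAU and DYNC1H1, CCT7 and ADGRF1 for PLAT. They were DCK, BCR and LOC112694756 for PLAUR and SCN11A, RTL10 and C6orf62 for SERPINE2. The differences were 0.00189 to 0.00914 on the log2 scale, among 3467 to 9717 candidate genes. MCL1, for example, held 98.6 and 97.9 CPM in sg1 and 112.8 and 111.1 CPM in control.

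The rest of the plasminogen system was taken from 41 further genes, each by its tallest gene-end peak, and 35 had one that could be tested. Among these, 12 were higher in sg1 (34.3%), 7 were lower (20.0%) and 16 did not pass. For protein-coding genes as a whole, 30.2% of such peaks were higher and 8.95% lower. The median log2 fold change of the 35 was 0.13, and 0.15 for protein-coding genes as a whole. By DESeq2, 6 of the list were higher and 3 lower. The shares for protein-coding genes as a whole are from edgeR, and none was taken by DESeq2 for such peaks. PLG, the plasminogen gene, had no gene-end peak, nor had A2M, FPR2, HGF and KLKB1, and the peak of the inhibitor gene SERPINB2 was too low to test.

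By role, the losses in this list included MMP9, which encodes a gelatinase that acts on matrix downstream of plasmin. Its peak at 46008172 to 46008823 on chromosome 20 had 53 and 32 counts in sg1, against 182 and 131 counts in control. It held 1.00 ± 0.273 CPM in sg1 and 8.70 ± 0.215 CPM in control (log2 fold change -3.10, SE 0.22, adjusted p = 7.60e-13), far apart. Among the 9 tested proteases and growth factors, 1 was lower and 2 were higher, TGFB1 (log2 fold change 0.42, adjusted p = 0.00564), whose peak is also at an end of B9D2, and F12, the coagulation factor XII gene (0.55, adjusted p = 0.00450). F12 was not called without sg1 replicate 2 (log2 fold change 0.51, adjusted p = 0.0785; range over alternatives 0.0019 to 0.0785). Among 10 tested partners of the urokinase receptor, 6 were higher and 3 lower, against the 30.2% and 8.95% of all such peaks. By DESeq2, 2 were higher (ITGA5 and EGFR) and 1 was lower (FPR1). The fibronectin receptor subunit gene ITGA5 rose to 10.6 ± 0.761 CPM in sg1, against 6.76 ± 0.961 CPM in control (log2 fold change 0.66, SE 0.15, adjusted p = 0.000697). FPR1, a formyl peptide receptor gene, fell to 8.05 ± 0.993 CPM in sg1, against 12.5 ± 1.28 CPM in control (log2 fold change -0.63, SE 0.13, adjusted p = 0.000436). The other 5 higher partners were ITGB1, ITGB3, ITGB5, ITGA3 and EGFR, with log2 fold changes of 0.25 to 0.75, and the other 2 lower were ITGAV (-0.25) and SRPX2 (-0.34).

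Of the 6 receptors that clear or take up the activators and their complexes, 3 were higher and 0 lower by edgeR. Over all such gene-end peaks edgeR called 30.2% higher and 8.95% lower, a background that also holds for the roles below. With p under 0.05 before adjustment 4 of the 6 receptors were higher and 0 lower, and by DESeq2 1 was higher and 0 lower. No background was taken for these last counts. The collagen uptake receptor gene MRC2 had the smallest p, with 38.5 ± 0.0221 CPM in sg1 and 31.3 ± 1.54 CPM in control (log2 fold change 0.30, SE 0.07, adjusted p = 0.00233), and LRP1 and SORL1 were the others. Of 5 plasminogen receptors, the glycolytic enzyme gene ENO1 was higher (log2 fold change 0.48, adjusted p = 0.000134) and PLGRKT lower (-0.30, adjusted p = 0.0274). The PLGRKT call was not made by DESeq2 (adjusted p = 0.156), with library size only (0.0632), with loess offsets (0.0572), or without sg1 replicate 1 (0.186), sg1 replicate 2 (0.203) or control replicate 2 (0.0727). Of 5 tested inhibitors, SERPINI1, the neuroserpin gene, which shares its peak with PDCD10, was lower (log2 fold change -0.38, SE 0.05, adjusted p = 1.78e-06), as was SERPINA5 (-0.37, adjusted p = 0.0329), which DESeq2 did not call (0.183).

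**Figure D4:**
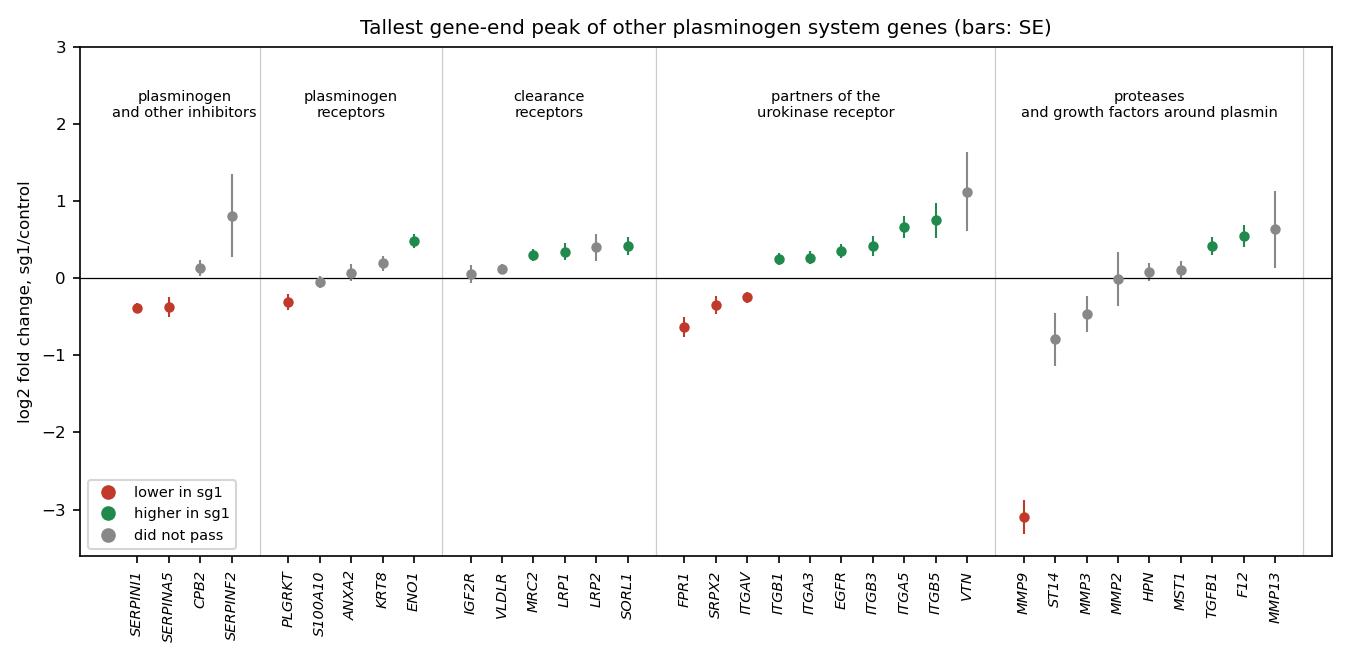
Log2 fold change of sg1 over control, with its SE, at the tallest gene-end peak of the further plasminogen system genes with a tested peak, grouped by role, with 1 gene not shown. MMP9 stands at -3.10, and 6 of the 10 partners of the urokinase receptor lie above 0 and passed, against 3 below 0 that passed.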

How the data were processed

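ATAC-seq counts were deposited for 4 libraries. Per the file headers, the authors made the raw counts per peak with featureCounts 1.6.0 from alignments whose names mark them as cut sites; each count is then 1 transposase cut. Per the submitters' processing notes, Trimmomatic 0.39, Bowtie2, MACS2 2.2.4 and DESeq2 1.32 were among the tools used; for the genome build and the peak merging rule, the sources used here give nothing. All 190348 peak positions were the same in the deposited peak list. Positions were matched to RefSeq GRCh38.p14, since 73.3% of 20037 protein-coding genes lay no more than 1 kb from a peak at an end, against 30.8% and 31.1% with a shift of 100 kb. Positions are printed as the table lists them. All 4 genes matched by symbol, and 3 had promoter windows.

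The 109 peaks in the first 250 kb of chromosome 1 were left out. The quasi-likelihood F test of edgeR 4.0.16, under R 4.3.3, was run with group as the single term after filterByExpr and TMM; 5522 peaks failed the filter. The SE is the log2 fold change over the square root of F, and 95% intervals come from it by the normal distribution. Alternatives were DESeq2 1.42.0, library size only, loess offsets, no filter, the chromosome 1 peaks kept, a replicate block and each library left out. The test was checked on simulated data. Other steps used Python 3.11.15 and pandas 2.3.3.

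The genes, lists and named peaks were chosen with earlier results of these data known. Named peaks were, per gene, those over a start or an end of the gene, the tallest, those past the FDR and the tallest that did not pass; per role of the further list, the member past the FDR with the smallest p in each direction. Other peaks named were chosen after their values were seen. The values of 1 gene of the further list are not reported here, though it is part of the counts.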

Additional observations from a re-analysis of the deposited data

How the results depend on the processing

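Of the 11 calls at member peaks, 6 were made under all 10 alternative fits, 5 of them lower and 1 higher. The count of lower member peaks, 8, was 7 by DESeq2, and 6 to 11 with a library left out. The count of higher member peaks, 3, was 1 by DESeq2 and 1 to 2 with a library left out, and 1 when peaks at another protein-coding gene were left out, an alternative chosen after seeing the data. Fewer peaks are counted in narrower windows. Within 2 kb of a gene, 3 were lower and 1 higher of 25 tested. Inside the genes, 2 were lower and 1 higher of 22 tested. In both windows the lower share is below the 16.8% of all tested peaks and the 15.5% near coding genes. The higher share is likewise below 11.5% and 12.2%. Over all peaks, DESeq2 called 17866 lower and 8475 higher, against 31041 and 21269 with edgeR, and leaving out a library gave 18888 to 29467 lower and 11147 to 20243 higher; without sg1 replicate 1 these were 19013 and 11524, and without sg1 replicate 2 they were 18888 and 11147. A lone library is then assumed to vary like the other group. With a library left out, 0 of the 11 called member peaks changed sign. This could hardly be otherwise, since both sg1 libraries lay on one side of both control libraries at all 11. Of the 27 member peaks that did not pass, 9 changed sign, with the cause not tested. Of the 9, 7 were not among the named peaks and 2 were: the PLAU peak at 73916903 without control replicate 1 (log2 fold change -0.045, range -0.045 to 0.056 with a library left out), and the PLAUR start peak without sg1 replicate 1 (-0.023) and without control replicate 2 (-0.088; range -0.088 to 0.18). The replicate numbers mark no shared culture or day in the labels, and deviations of same-numbered libraries did not correlate (-0.00026). The replicate block gave 8 lower and 2 higher member peaks and 30358 lower and 21218 higher over all peaks. Depth limits peaks of about 1 CPM, where SEs on the log2 scale ran from 0.31 to 0.56.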

Other observations

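Between 10 and 100 kb from SERPINE2, a span chosen after the member values were seen, 8 of 16 tested peaks were lower in sg1 and 0 higher (edgeR, FDR of 0.05; 10 lower and 0 higher at an unadjusted p under 0.05, and 6 lower and 0 higher by DESeq2). Over all tested peaks edgeR called 16.8% lower at that FDR, and no background was taken for the unadjusted counts. The largest difference was at 224055156 to 224055456 on chromosome 2, 15.9 kb above the gene, with 4 and 5 counts in sg1 and 30 and 17 counts in control (0.109 ± 0.0257 CPM in sg1 and 1.28 ± 0.247 CPM in control; log2 fold change -3.54, SE 0.53, adjusted p = 4.20e-06). A taller peak at 224101953 to 224102660, 62.7 kb above it, held 4.36 ± 0.423 CPM in sg1 and 10.5 ± 0.598 CPM in control (log2 fold change -1.27, SE 0.16, adjusted p = 1.11e-07). The 5 lower peaks below SERPINE2 lie inside the gene WDFY1. Out to 1000 kb, 34 of 153 tested peaks were lower (22.2%) and 11 higher.

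In the same span, PLAU had 5 lower and 7 higher of 36 tested peaks, PLAT 3 and 1 of 23, and PLAUR 7 and 5 of 29, where 11.5% of all tested peaks were higher. DESeq2 called 2 lower and 3 higher at PLAU, 2 and 0 at PLAT and 3 and 3 at PLAUR. At 19.4 kb below PLAU, the peak at 73889019 to 73889406 on chromosome 10 held 7.76 ± 1.498 CPM in sg1 and 19.0 ± 0.491 CPM in control (log2 fold change -1.29, SE 0.12, adjusted p = 4.79e-10). At 84.9 kb above PLAT, inside the NF-kB kinase gene IKBKB, the peak at 42292459 to 42293439 on chromosome 8 held 33.0 ± 0.0160 CPM in sg1 and 70.4 ± 4.52 CPM in control (log2 fold change -1.09, SE 0.07, adjusted p = 1.30e-14). Which genes these distant peaks act on was not tested.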
